A study of Mus musculus with 61 samples.

Results

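Chemokines are small secreted proteins that bind receptors on leukocytes and direct where those cells move. The 9 genes described here are the chemokines of mouse skeletal muscle chosen by symbol from a count table of 55011 genes. They are the monocyte attractants Ccl2 and Ccl7, Ccl8 from the same part of their chromosome, and the myeloid-derived Ccl6 and Ccl9. The others are the interferon-induced Cxcl9 and Cxcl10 and the constitutive tissue chemokines Cxcl12 and Cx3cl1. All 9 symbols were found, and their levels were followed through 61 libraries in 22 groups. Ccl2 and Ccl7 act on CCR2 of monocytes, Cxcl9 and Cxcl10 on CXCR3 of activated T and NK cells, Cxcl12 on CXCR4 and ACKR3, and Cx3cl1 on CX3CR1. In muscle, monocyte attractants are known to rise after damage, while Cxcl9 and Cxcl10 are textbook targets of interferon-gamma. Stromal and endothelial cells are the usual sources of Cxcl12.

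The libraries came from whole muscle, so fewer cells of a type and less RNA per cell cannot be told apart. Wild-type C57BL/6J mice gave quadriceps and tibialis anterior, each in sedentary mice and at days 1, 2 and 7 after acute exercise (3 libraries a group). The other experiments asked what regulatory T cells and interferon-gamma contribute to muscle after exercise or in ageing. Foxp3DTR+ mice (Foxp3-IRES-GFP.hDTR, in which Foxp3-expressing cells carry a human diphtheria toxin receptor) and Foxp3DTR- mice were compared, and diphtheria toxin was given to both genotypes, so the DTR- controls carry the toxin but not the receptor. In the acute experiment, quadriceps was taken from sedentary mice (DTR+ n = 2, DTR- n = 3), at day 1 (n = 3 and 3) and at day 7 after exercise (n = 2 and 2). In the training experiment, quadriceps came from sedentary or 2-week trained mice of each genotype (n = 3 in each of the 4 groups). Trained, toxin-treated DTR+ mice that received a neutralizing antibody to interferon-gamma (aIFNg) or IgG gave a further 3 and 3 quadriceps libraries. Sedentary 24-month-old mice, C57BL/6JN in the labels, received the same antibodies without toxin or receptor (n = 2 and 2), and the labels do not name their muscle. No label says that libraries came from separate animals other than through their numbers, so p-values measure the spread between these libraries.

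Library totals ran from 3359683 to 14445336 counts, so a gene with no counts in a library may still have been present at up to 0.208 to 0.893 CPM (a gene's counts scaled to the library total), the level of 3 counts. Such limits cover counting error only. Foxp3, whose cells the toxin removes, had 2 counts in all in the 7 DTR+ libraries of the acute experiment, and 9, 16 and 0 in all in the DTR- libraries of sedentary mice, day 1 and day 7, too few to check depletion in whole muscle. The 4 DTR+ sedentary and day-7 libraries of the acute experiment stood apart. Mitochondrial genes took 20.01% to 23.5% of their counts, against 7.89% to 12% in the DTR- libraries of the same time points and 5.44% to 6.56% at day 1. They detected 14701 to 15306 genes, against 16508 to 18494 and 21211 to 26596. Genotype and this difference between libraries cannot be told apart in the sedentary and day-7 comparisons of genotypes. Day 1 after exercise and such differences cannot be told apart against sedentary mice of either genotype.

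The genes lie on 4 chromosomes (GRCm38). Ccl2 (chr11:82035571-82037453) and Ccl7 (chr11:82045712-82047525) lie 8258 bp apart on the plus strand. Ccl8 (chr11:82115185-82116799) lies 67659 bp from Ccl7 on the same strand. Ccl9 (chr11:83572919-83578636) and Ccl6 (chr11:83587882-83593087) lie 9245 bp apart on the minus strand of the same chromosome. Cxcl9 (chr5:92321347-92328079) and Cxcl10 (chr5:92346638-92348889) lie 18558 bp apart on the minus strand. Cxcl12 (chr6:117168535-117181367) and Cx3cl1 (chr8:94772009-94782427) stand alone, both on the plus strand. Ccl2, Ccl7, Ccl6 and Ccl9 have close relatives beside them, so the share of reads given to each by the authors' counting is uncertain.

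Promoter sequences are shown for Cxcl9 and Cxcl10, which were high in the same groups, and for Ccl8, which was high in those groups without a match. Each is the RefSeq sequence of the 250 bases before the annotated start (GRCm38.p6), 5′ to 3′ on the gene's strand. Capitals mark matches, on either strand, to an interferon-response core (GAAANNGAA), to the GAS element (TTCNNNGAA), or to the NF-kB consensus.
Cxcl9, chr5:92328080-92328329, minus strand: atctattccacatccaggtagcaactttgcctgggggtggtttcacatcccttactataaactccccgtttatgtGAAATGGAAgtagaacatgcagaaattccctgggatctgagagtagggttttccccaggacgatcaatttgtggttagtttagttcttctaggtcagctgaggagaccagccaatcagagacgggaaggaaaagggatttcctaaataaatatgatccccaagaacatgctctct
Cxcl10, chr5:92348890-92349139, minus strand: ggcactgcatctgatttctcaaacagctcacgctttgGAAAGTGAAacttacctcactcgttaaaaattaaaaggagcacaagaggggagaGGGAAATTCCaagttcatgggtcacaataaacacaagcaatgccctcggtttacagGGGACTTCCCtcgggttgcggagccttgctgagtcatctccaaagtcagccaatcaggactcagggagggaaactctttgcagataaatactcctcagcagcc
Ccl8, chr11:82114935-82115184, plus strand: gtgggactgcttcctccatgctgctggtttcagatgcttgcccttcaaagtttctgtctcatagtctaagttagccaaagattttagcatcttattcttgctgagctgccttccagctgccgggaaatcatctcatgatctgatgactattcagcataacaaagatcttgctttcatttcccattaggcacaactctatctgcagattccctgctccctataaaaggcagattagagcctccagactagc
Cxcl9 held 1 interferon-response core, beginning 175 bases before the start. Cxcl10 held 1, beginning 213 bases before the start, and 2 NF-kB matches at 159 and 103 bases before it. None of these matches overlapped another. Ccl9 held 1 NF-kB match at 35 bases before its start, and Ccl8, Ccl6, Cxcl12 and Cx3cl1 held none of the 3 motifs. Among 27025 promoters of that length, 7.16% held the interferon-response core, 7.18% the GAS element and 3.75% the NF-kB consensus. A match is a description of letters and not evidence of binding. RefSeq promoter entries matched 7 of the 9 genes, and those of Ccl2 and Ccl7 are not shown.

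Per kilobase of exon, Cxcl12 was the most abundant of the 9 in sedentary wild-type quadriceps (mean 16.7 CPM per kb), followed by Ccl6 (3.92), Ccl8 (1.56), Ccl2 (1.05), Cx3cl1 (0.934), Ccl9 (0.732), Ccl7 (0.643) and Cxcl9 (0.165), while Cxcl10 had no counts there (up to 0.138 CPM over the group). The order was another in DTR+ mice at day 7 after acute exercise, where Ccl8 (110 CPM per kb) stood first, then Ccl6 (57.2), Ccl7 (26.4), Cxcl9 (13.7) and Ccl2 (10.9), with Cxcl12 at 2.67. Cxcl12, Ccl6 and Ccl9 had counts in every library, whereas Cxcl10 had none in 22 of 61. Ordered by group mean, 7 of the 9 genes (Ccl2, Ccl7, Ccl8, Ccl6, Ccl9, Cxcl9 and Cxcl10) stood highest in DTR+ mice 7 days after acute exercise. Of the 21 steps between neighbouring groups in each order, 19 to 21 joined groups whose libraries overlapped. Neighbours have close means because the groups were sorted by them, so this count cannot say whether groups differ beyond their spread. The top group stood clear of the next for Ccl8 (the next being aged mice with IgG) and Ccl6 (sedentary DTR+ mice), and overlapped it for the other 5 genes. Cxcl9 and Cxcl10 shared their first 3 groups, DTR+ at day 7, trained DTR+ and trained DTR+ with IgG, and for both a step without overlap separated the second from the third and the third from the fourth. The groups come from separate experiments, and the order across them carries that difference.

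**Figure D1:**
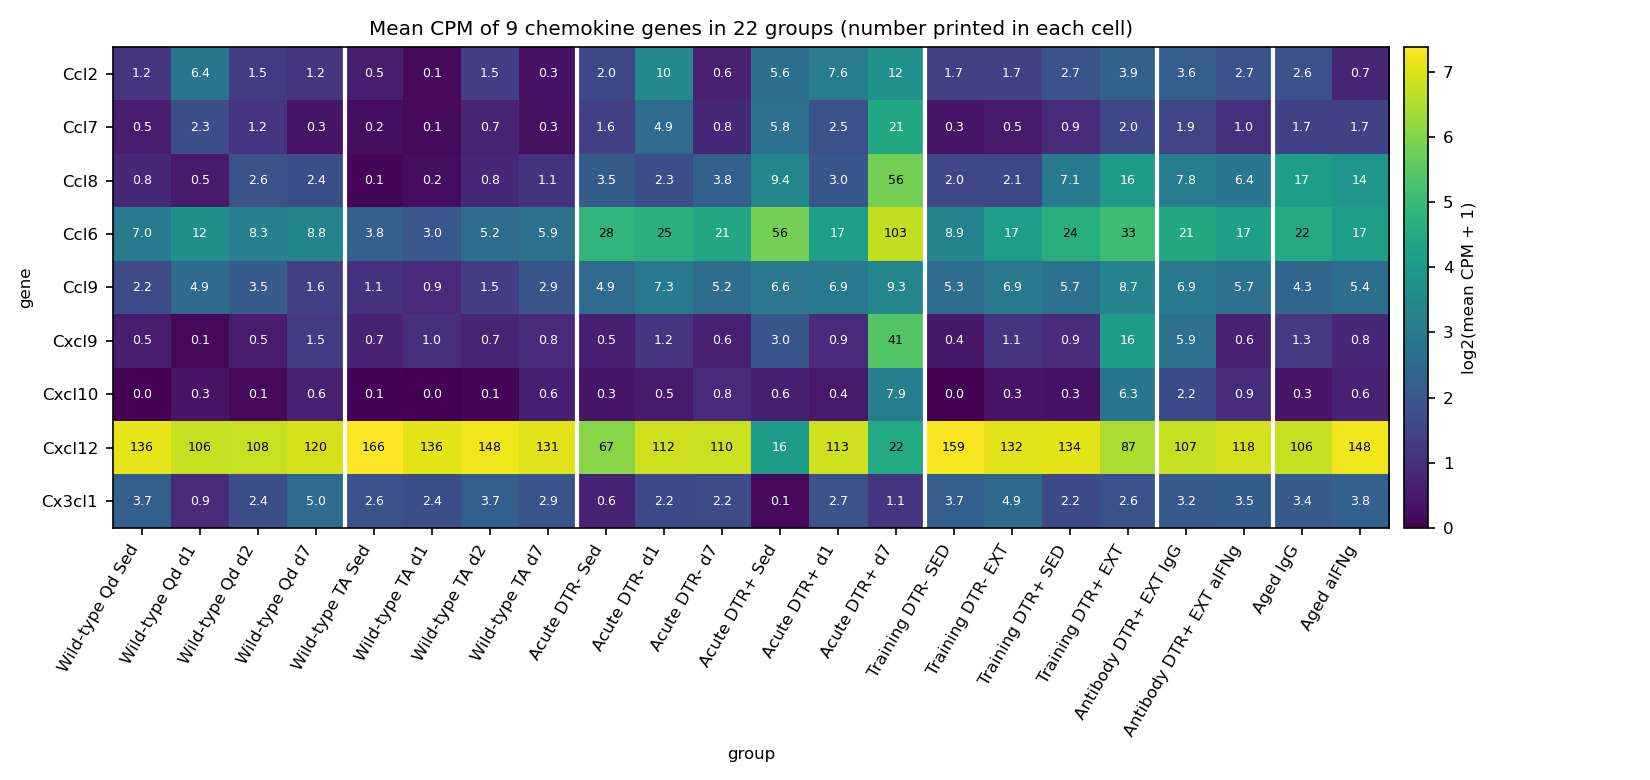
Mean CPM of the 9 genes (rows) in the 22 groups (columns, white lines between experiments), with colour as log2(mean CPM + 1) and the mean printed in each cell. Ccl6, Ccl8 and Cxcl9 are brightest in the DTR+ day-7 column, where Cxcl12 is at 22 CPM beside 110 in DTR- mice.

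At day 7 after acute exercise, DTR+ quadriceps held far more monocyte-attracting and interferon-induced chemokine RNA than DTR- quadriceps, and less Cxcl12. Of the 9 genes, all tested, 6 were higher and 1 lower (edgeR quasi-likelihood test, Benjamini-Hochberg adjusted p under 0.05 over 14245 genes), where 11.3% of all tested genes were called higher and 14% lower. Their median log2 fold change was 3.52, beside −0.10 over all genes. Counted by libraries that did not overlap, 6 of the 9 were higher and 2 lower (18.2% and 41.1% of all tested genes).

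Among the CCR2 ligands, Ccl2 was at 4.78 and 20.01 CPM in the DTR+ libraries and at 0.659 and 0.557 CPM in the DTR- libraries. Both DTR+ values lay above both controls, and the fitted log2 difference was 4.62 ± 0.93 (SE; adjusted p = 0.000959). Ccl7 read 9.01 and 33.3 CPM against 0.659 and 0.892 CPM, again without overlap (log2 4.98 ± 0.77, adjusted p = 8.71e-05). Ccl8 was at 33.0 and 79.7 CPM against 3.95 and 3.57 CPM (log2 4.19 ± 0.62, adjusted p = 5.97e-05). In each of these genes DTR+ library 3 was the higher of the pair, by more than the whole level of the controls.

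Ccl6, made mainly by macrophages and other myeloid cells, reached 77.4 and 128 CPM in DTR+ libraries, against 18.4 and 23.0 CPM (log2 2.58 ± 0.36, adjusted p = 3.57e-05). Its neighbour Ccl9 was at 6.45 and 12.2 CPM against 7.03 and 3.34 CPM. The Ccl9 groups overlapped and the gene was not called (log2 1.18 ± 0.47, adjusted p = 0.0745), although it passed without DTR+ library 2 (adjusted p = 0.0349).

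Cxcl9 showed the largest difference of the 9, with 13.6 and 69.0 CPM in DTR+ and 0.878 and 0.334 CPM in DTR- libraries. The DTR- values rest on 4 and 3 counts, and the fitted difference was 91.1-fold (log2 6.51 ± 0.99, adjusted p = 7.35e-05). Cxcl10 read 5.01 and 10.8 CPM against 0.878 and 0.780 CPM (log2 3.52 ± 1.16, adjusted p = 0.0301). The Cxcl10 call was lost without DTR+ library 3 (adjusted p = 0.202), DTR- library 1 (0.127) or DTR- library 3 (0.146), with log2 values of 2.86 to 3.57. The other 6 calls held in all 10 alternatives run for each.

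Cxcl12 moved the other way. It was at 19.5 and 24.2 CPM in the DTR+ libraries and at 145 and 74.8 CPM in the DTR- libraries, 4.10-fold lower without overlap (log2 −2.04 ± 0.30, adjusted p = 4.82e-05). Cx3cl1, the membrane-bound chemokine of endothelium, was at 1.11 and 1.17 CPM against 1.76 and 2.67 CPM, and the difference was not called (log2 −0.69 ± 0.92, adjusted p = 0.633).

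**Figure D2:**
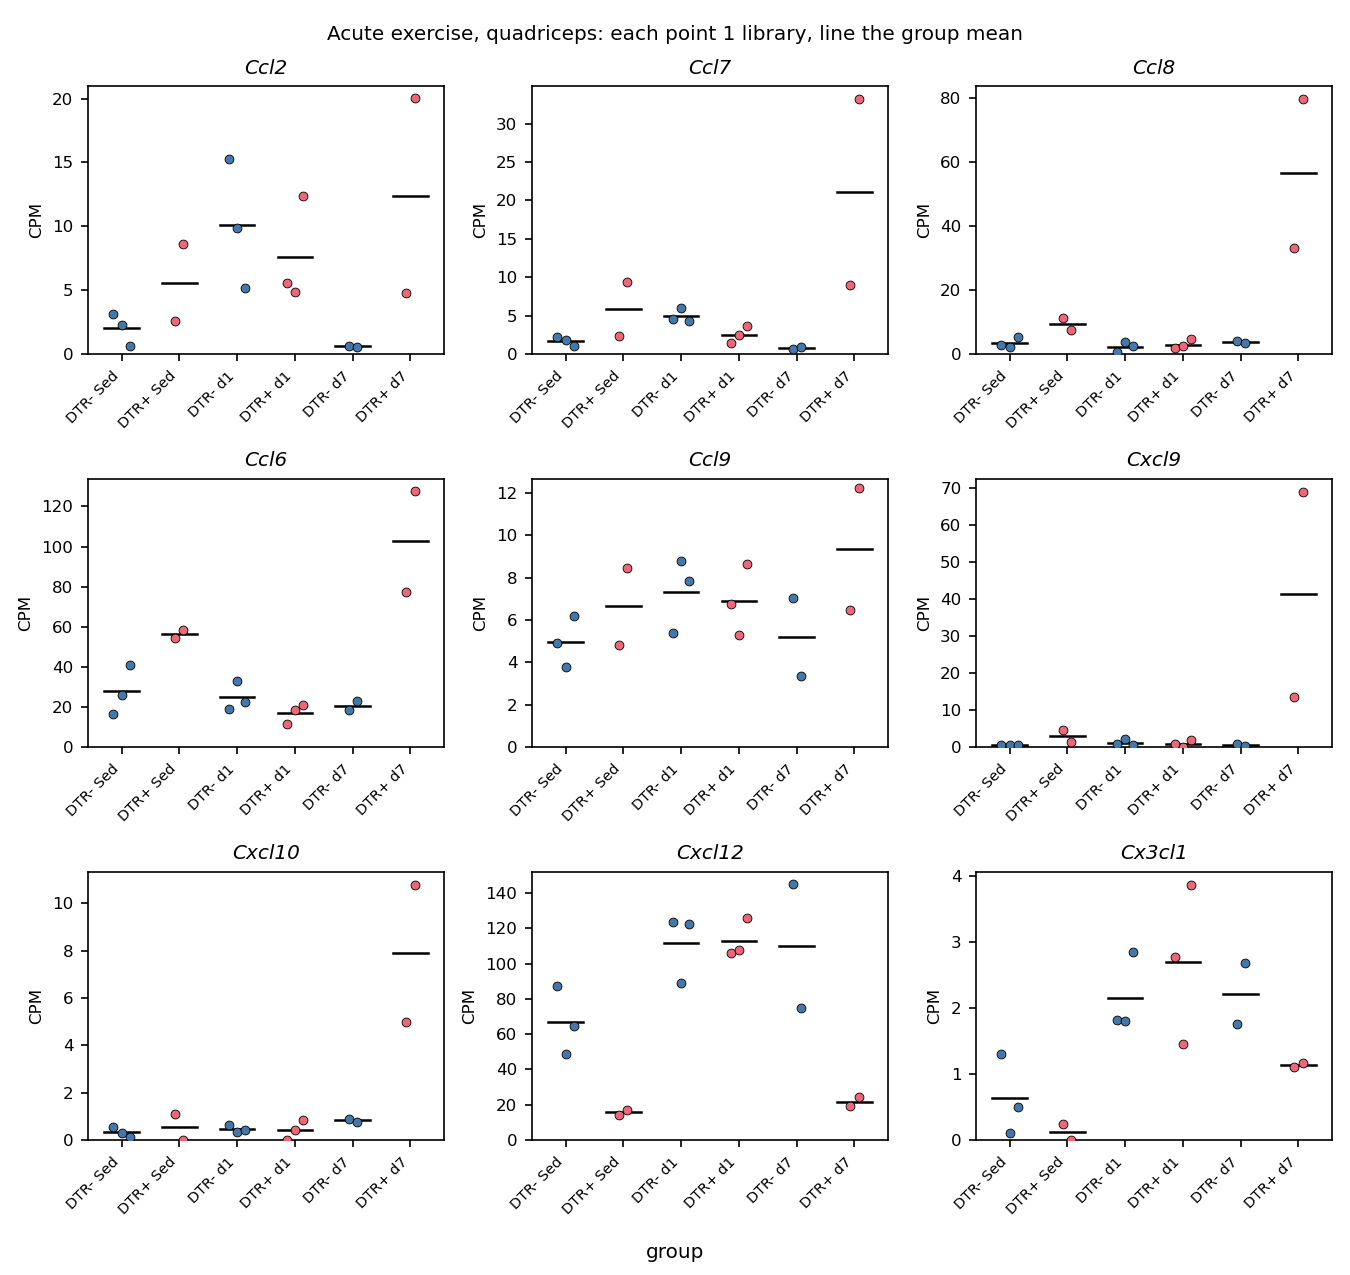
CPM of each of the 9 genes (y axis from 0, 1 panel a gene) in the acute experiment, with 1 point per library (blue DTR-, red DTR+) and a line at the group mean. At day 7 both DTR+ points of Ccl2, Ccl7, Ccl8, Ccl6, Cxcl9 and Cxcl10 lie above both DTR- points, and both of Cxcl12 lie below.

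Several cell-type markers moved with these values, and their part in the chemokine differences was not tested. The summed level of 10 macrophage and monocyte markers was 255 to 483 CPM in DTR+ and 170 to 208 CPM in DTR- libraries at day 7, with 4 of 10 called higher (Lyz2, Mrc1, Fcgr1 and Cd68). The 10 T and NK cell markers summed to 25.3 to 65.2 CPM against 4.01 to 7.46 CPM, where Cd3d, Cd8a, Cd4, Gzmb and Trbc2 were at 0 in both DTR- libraries, and 5 of the 7 tested were higher. The 4 neutrophil markers overlapped (4.12 to 10.0 against 6.91 to 89.4 CPM), with S100a8 lower. Beside Cxcl12, the 6 endothelial markers summed to 112 to 118 CPM in DTR+ and 165 to 202 CPM in DTR- libraries, with Cldn5 and Pecam1 called lower, and the 6 fibro-adipogenic markers to 1098 to 1117 against 1201 to 1281 CPM, with Col1a1 and Pi16 lower.

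The remaining chemokine ligands gave 5 higher and 1 lower among 10 tested of 26 listed. Ccl5, an attractant of T cells, averaged 22.3 ± 21.4 CPM (SD, n = 2) in DTR+ and 0.667 ± 0.633 CPM (n = 2) in DTR- libraries (adjusted p = 0.000280), and Ccl11, the eosinophil attractant eotaxin, 42.8 ± 8.59 against 16.9 ± 0.914 CPM (adjusted p = 0.000198). Ccl12, Ccl17 and Ccl25 were also higher, and Cxcl14 was lower. Of 12 receptors tested, Cxcr6 and the scavenging receptor Ackr1 were higher (Ackr1 10.4 and 11.3 against 1.54 and 3.68 CPM across the libraries) and Ackr3, which takes up CXCL12, was lower (2.45 and 2.99 against 9.66 and 17.1 CPM). Ccr2 stood at 9.79 and 16.1 CPM against 5.02 and 5.27 CPM and was not called. Cxcr3, the receptor of CXCL9 and CXCL10, had 23 counts in all in DTR+ libraries, all in 1 of the 2, and 5 in DTR-. Of 24 tested interferon-gamma pathway genes, 18 were higher and 1, Ifngr2, was lower, with a median log2 of 2.69. Igtp, an interferon-induced GTPase, averaged 1229 ± 1384 CPM against 17.2 ± 6.68 CPM (n = 2 and 2). Ifng itself had 9 counts in DTR+ library 3 and 0 in every other acute library. Of 6 inflammatory cytokine and NF-kB genes tested, none was higher, and Rela and Relb were lower.

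In sedentary mice of the same experiment the fitted differences had the same signs as at day 7. They were smaller for 8 of the 9 genes and larger for Cx3cl1 (log2 −1.98 ± 1.21, not called), and the 2 DTR+ libraries were again those with high mitochondrial shares. Of the 9 genes 4 were higher (12.1% of tested genes were called higher) and 1 was lower (14.5%). Ccl6 was at 54.2 and 58.4 CPM in DTR+ and at 16.5, 26.2 and 40.9 CPM in DTR- libraries (log2 1.34 ± 0.31, adjusted p = 0.00291). Ccl8 read 11.4 and 7.48 CPM against 2.83, 2.30 and 5.44 CPM (log2 1.74 ± 0.53, adjusted p = 0.0189). Neither gene's groups overlapped. Ccl7 was at 2.35 and 9.35 CPM against 2.18, 1.78 and 0.989 CPM (log2 2.11 ± 0.60, adjusted p = 0.0124), the lower DTR+ library close to the highest control. Cxcl9 was at 4.69 and 1.25 CPM against 0.654, 0.418 and 0.494 CPM (log2 2.79 ± 0.86, adjusted p = 0.0209). Cxcl12 was at 14.3 and 17.0 CPM against 87.1, 48.5 and 64.4 CPM, 3.45-fold lower and without overlap (log2 −1.79 ± 0.28, adjusted p = 9.37e-05). Ccl2 was not called, at 2.59 and 8.60 CPM against 3.16, 2.30 and 0.618 CPM (adjusted p = 0.0662), nor were Ccl9, Cxcl10 and Cx3cl1.

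When the dependence of fold changes on gene length and GC content was removed, the sedentary calls of Ccl6 (adjusted p = 0.0920), Ccl7 (0.154) and Ccl8 (0.436) were lost and those of Cxcl9 and Cxcl12 held. Leaving out 1 library also lost Ccl7 (without DTR+ library 3, adjusted p = 0.475, or DTR- library 3, 0.0597), Ccl8 (without DTR+ library 2, 0.156, DTR- library 1, 0.0539, or DTR- library 2, 0.0779) and Cxcl9 (without DTR+ library 2, 0.398, DTR- library 2, 0.0676, or DTR- library 3, 0.0632), and gained Ccl2 (without DTR+ library 2, 0.0332, or DTR- library 1, 0.0458). Ccl2 was also called by DESeq2 (0.0424) and without the filter on low counts (0.00326). The macrophage markers overlapped between the genotypes here (177 to 209 CPM in DTR+, 152 to 229 CPM in DTR- libraries). The endothelial markers did not (99.7 to 107 against 115 to 163 CPM).

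Cxcl12 was low where the mitochondrial share was high among the 15 acute libraries: the 4 libraries above 20% held 14.3 to 24.2 CPM and the other 11 held 48.5 to 145 CPM. A library of aged muscle with a share of 14.0% and 14887 genes also held 28.9 CPM of Cxcl12. Ccl6 and Ccl8 split the acute libraries the other way: the 4 above 20% held 54.2 to 128 and 7.48 to 79.7 CPM. The other 11 held 11.5 to 40.9 and 0.553 to 5.44 CPM, and the remaining genes overlapped. The aged library held 25.2 CPM of Ccl8 (the other aged libraries 2.11 to 17.1 CPM) and 28.5 CPM of Ccl6 (4.75 to 29.6 CPM). Cxcl12 has the longest exon length of the 9 genes (8176 bp). Its calls between the genotypes in sedentary and day-7 mice held with the length and GC trend removed, as in all other alternatives. Removing that trend cannot separate genotype from the mitochondrial share, because the 2 go together in these comparisons. The part of library quality was not tested.

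**Figure D3:**
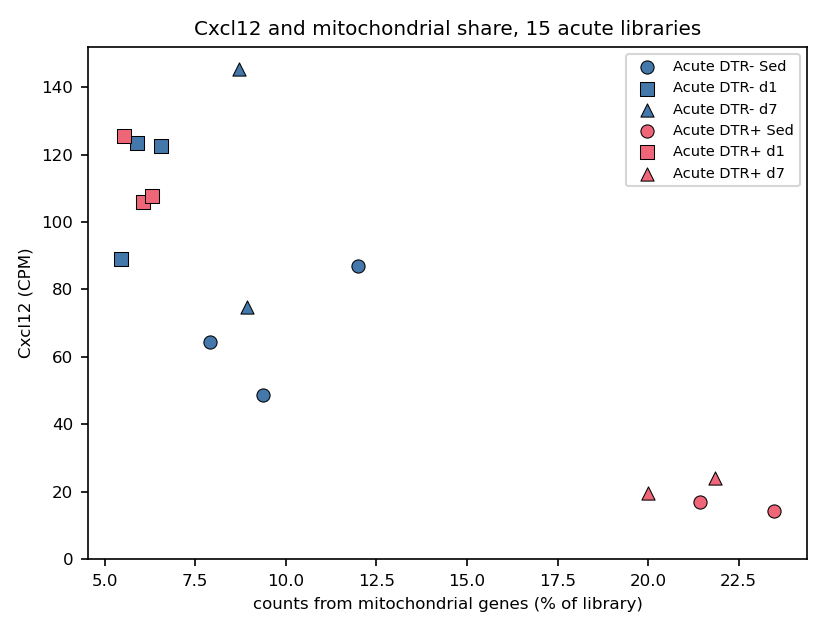
Cxcl12 in CPM (y axis) against the percent of counts from mitochondrial genes (x axis) in the 15 acute libraries, coloured by genotype and shaped by time. The 4 DTR+ sedentary and day-7 libraries lie at 20.01% to 23.5% and under 25 CPM.

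Within DTR+ mice the day-7 and sedentary libraries share the high mitochondrial share (20.01% and 21.8% against 23.5% and 21.4%), and there 2 of the 9 genes rose, where 0.632% of all tested genes were called higher. Cxcl9 went from 4.69 and 1.25 CPM to 13.6 and 69.0 CPM (log2 3.66 ± 0.79, adjusted p = 0.0262), and Ccl8 from 11.4 and 7.48 CPM to 33.0 and 79.7 CPM (log2 2.45 ± 0.56, adjusted p = 0.0363). Neither gene's groups overlapped. All 9 fitted changes were upward, with a median log2 of 1.73 beside 0.00 over all genes, and Cxcl10, from 1.11 and 0 CPM to 5.01 and 10.8 CPM, missed the threshold (log2 3.67 ± 1.17, edgeR adjusted p = 0.139; DESeq2 adjusted p = 0.0455). Both calls were lost when the spread was taken from these 4 libraries alone (adjusted p = 0.389 for Cxcl9 and 0.211 for Ccl8). They were also lost without sedentary library 3 (0.135 and 0.156) or day-7 library 3 (0.376 and 0.262), and Ccl8 without sedentary library 2 (0.0704). Ccl7 gained a call without day-7 library 2 (0.0362). The difference between genotypes in the day-7 response was called for none of the 9 genes by edgeR or DESeq2, where edgeR called 0.0772% of genes. With edgeR 5 of the 9 had an unadjusted p under 0.05, beside 1394 of 14245 genes. Cxcl9 came to log2 3.72 ± 1.40 (adjusted p = 0.365) and Ccl8 to 2.45 ± 0.81 (adjusted p = 0.284).

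In DTR- mice Ccl2 was the 1 gene of the 9 called at day 1 after exercise. It was at 15.2, 9.90 and 5.19 CPM, against 3.16, 2.30 and 0.618 CPM in sedentary mice (log2 2.06 ± 0.62, adjusted p = 0.0264), where 8.16% of tested genes were called higher. Its groups did not overlap, but the call was lost without sedentary library 2 (adjusted p = 0.0719) or 3 (0.104) and without day-1 library 1 (0.123) or 2 (0.0593). The day-1 DTR- libraries detected 21211 to 26596 genes, against 16508 to 16799 in the sedentary ones. Their mitochondrial share was 5.44% to 6.56% against 7.89% to 12%. Exercise and this difference between libraries cannot be told apart here. Ccl7, at 4.58, 5.95 and 4.27 against 2.18, 1.78 and 0.989 CPM, also did not overlap and was not called (log2 1.31 ± 0.55, adjusted p = 0.108). Cxcl12 was called without sedentary library 1 (adjusted p = 0.0485). At day 7 neither edgeR nor DESeq2 called any of the 9 against sedentary DTR- mice, where edgeR called 0.00702% of genes. With edgeR 1 of the 9 had an unadjusted p under 0.05, beside 1105 of 14245 genes. Ccl2 was at 0.659 and 0.557 CPM at day 7.

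At day 1 none of the 9 genes was called between DTR+ and DTR- mice (none had an unadjusted p under 0.05), and neither edgeR nor DESeq2 called any gene in the whole table (280 of 14245 and 299 genes had an unadjusted p under 0.05). Ccl7 was lower without overlap, at 1.38, 2.49 and 3.71 CPM in DTR+ and 4.58, 5.95 and 4.27 CPM in DTR- mice (log2 −0.93 ± 0.52, unadjusted p = 0.0875). Ccl2 was at 5.54, 4.87 and 12.4 CPM in DTR+ and at 15.2, 9.90 and 5.19 CPM in DTR- mice, and Cxcl12 averaged 113 ± 10.9 CPM (SD, n = 3) and 112 ± 19.6 CPM (n = 3). Set against sedentary DTR+ mice, whose mitochondrial share was 21.4% to 23.5% beside 5.53% to 6.31% at day 1, 2 of the 9 genes were higher (Cxcl12 and Cx3cl1; 24.3% of all genes) and 4 were lower (Ccl6, Ccl7, Ccl8 and Cxcl9; 18.1% of all genes). Cxcl12 rose by 2.32 ± 0.29 on the log2 scale (adjusted p = 1.72e-06) and Ccl6 fell by 2.25 ± 0.31 (adjusted p = 7.24e-06), and these calls held in all 11 alternatives. The median over all genes in this comparison was log2 0.28, and 0.06 with the length and GC trend removed. With the length and GC trend removed, the calls of Ccl7 (log2 −0.57 in place of −1.72, adjusted p = 0.457), Ccl8 (−0.69 in place of −2.17, 0.325) and Cx3cl1 (2.68 in place of 3.82, 0.0860) were lost, and that of Cxcl9 was lost with a change of like size (−2.00 in place of −2.20, 0.0534). Leaving out 1 library lost Ccl7 (sedentary library 3, 0.649; day-1 libraries 1 and 2, 0.0794 and 0.0527), Cx3cl1 (sedentary library 3, 0.0942) and Cxcl9 (sedentary library 2, 0.514; day-1 libraries 1 and 2, 0.0773 and 0.0875), and Cxcl9 was not called by DESeq2 (0.0671) or with the compared groups alone (0.0627).

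In the training experiment mitochondrial genes took 4.98% to 8.93% of counts. Sedentary DTR+ library 2 stood apart from the other 2 of its group, with 17342 genes detected against 22079 and 21186 and a mitochondrial share of 8.01% against 5.15% and 5.21%. The chemokines that stood out in trained DTR+ mice were Cxcl9, Cxcl10 and Ccl8. Against trained DTR- mice 2 of the 8 genes tested were higher and none lower, where 0.62% of 12579 genes were called higher. Their median log2 fold change was 1.15 beside −0.00 over all genes. Ccl7 was too low to test (35 counts in all in DTR+ and 8 in DTR- trained libraries), at 1.29, 2.42 and 2.27 CPM against 0, 0.381 and 0.981 CPM.

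Cxcl9 was at 8.20, 28.7 and 10.3 CPM in trained DTR+ libraries and at 0.166, 2.28 and 0.981 CPM in trained DTR- libraries. The groups did not overlap and the fitted difference was 14.5-fold (log2 3.86 ± 0.68, adjusted p = 0.00468). Ccl8 was at 12.9, 19.2 and 15.2 CPM against 2.48, 1.71 and 1.96 CPM (7.88-fold, log2 2.98 ± 0.51, adjusted p = 0.00315), and its call held in all 12 alternatives. The Cxcl9 call was lost without DTR+ library 2, its highest (log2 3.05, adjusted p = 0.178).

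Cxcl10 was at 8.20, 6.92 and 3.67 CPM in trained DTR+ libraries (51, 40 and 21 counts) and at 0, 0.952 and 0 CPM in trained DTR- libraries (5 counts in all). The groups did not overlap, yet the adjusted p of 0.0534 missed the threshold (log2 4.37 ± 1.02). It passed with DESeq2 (adjusted p = 0.00563), with the length and GC trend removed (0.0449), with the compared groups alone (0.0245), without the filter on low counts (0.000251), without DTR- library 2 (0.0248) and without DTR+ library 3 (0.0474). Ccl6 read 31.0, 46.0 and 22.5 CPM against 18.6, 16.7 and 14.7 CPM, without overlap and not called (log2 1.06 ± 0.42, adjusted p = 0.450). Cxcl12 was at 78.6, 80.6 and 103 CPM against 137, 140 and 121 CPM, also without overlap and not called (log2 −0.55 ± 0.19, adjusted p = 0.349). Cx3cl1, at 1.29, 3.11 and 3.49 CPM against 4.31, 5.71 and 4.58 CPM, was lower without overlap and not called. Ccl2 and Ccl9 overlapped and were not called either. How many of all genes separated without overlap was not counted here.

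**Figure D4:**
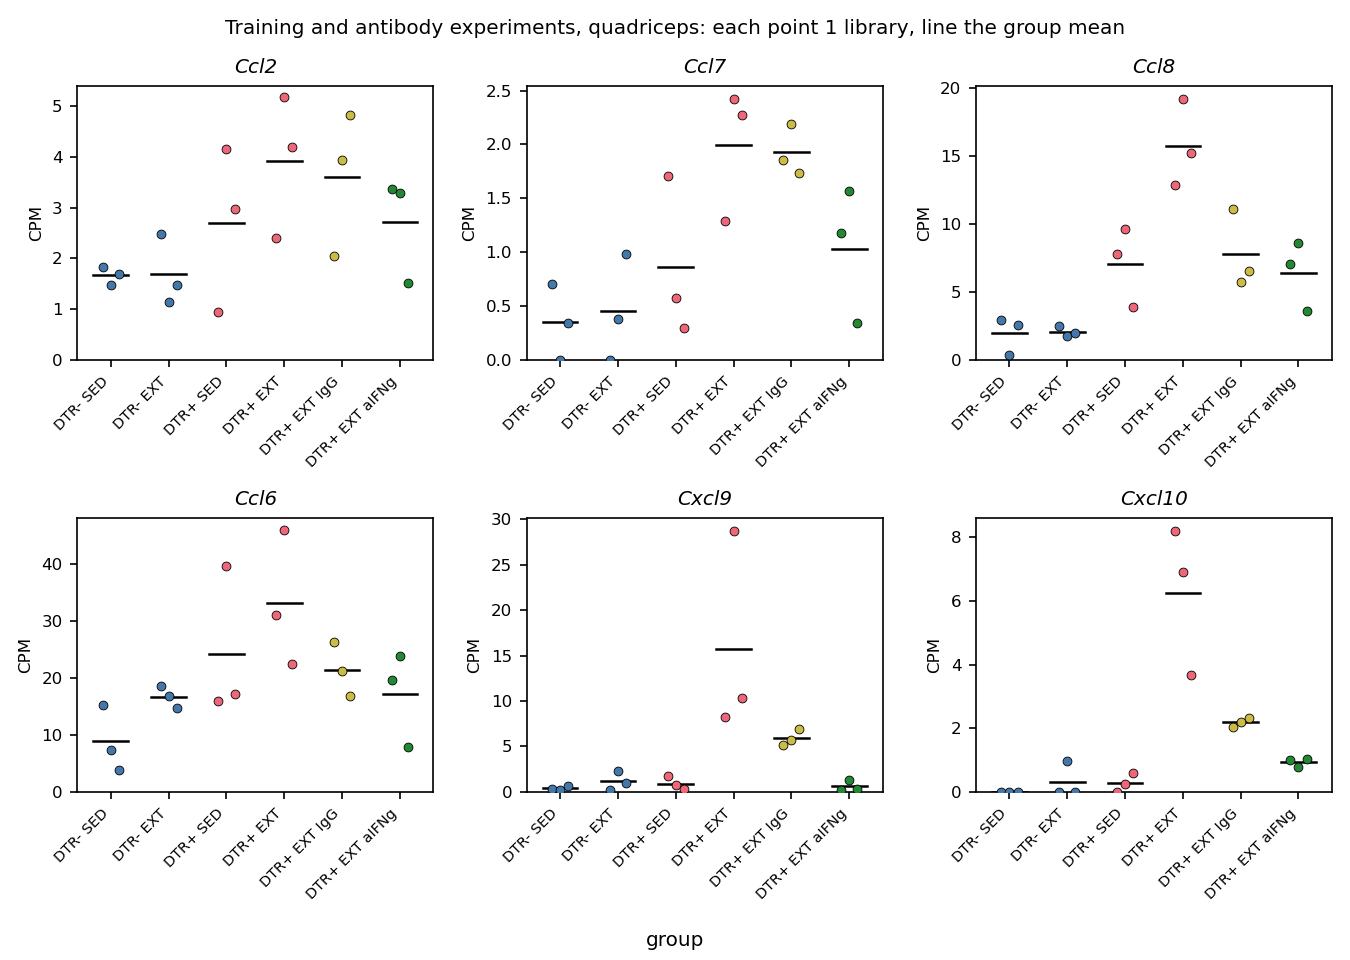
CPM (y axis from 0) of 6 chemokines in the training groups (blue DTR-, red DTR+) and the antibody groups (yellow IgG, green aIFNg), with 1 point per library and a line at the group mean. Trained DTR+ mice are the highest group for Cxcl9, Cxcl10 and Ccl8, and the aIFNg points lie below all IgG points for Cxcl9, Cxcl10 and Ccl7.

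Within DTR+ mice, training went with more Cxcl9 and Cxcl10. Cxcl9 was at 1.70, 0.693 and 0.298 CPM in sedentary libraries, beside the 8.20 to 28.7 CPM of trained ones (16.1-fold, log2 4.01 ± 0.70, adjusted p = 0.00419). Cxcl10 was at 0, 0.231 and 0.595 CPM in sedentary libraries, beside 3.67 to 8.20 CPM in trained ones (23.2-fold from 4 counts in all, log2 4.54 ± 1.06, adjusted p = 0.0309). These were 2 of the 8 genes tested, where 0.978% of all genes were called higher. Ccl8, at 7.77, 9.59 and 3.87 CPM in sedentary libraries, was lower there than in every trained library but was not called (log2 1.04 ± 0.45, adjusted p = 0.301). Without trained library 2 both calls were lost (adjusted p = 0.0922 for Cxcl9 and 0.174 for Cxcl10), and Cxcl10 was also lost without sedentary library 1 (0.106) or 3 (0.0512) or trained library 1 (0.141). Cxcl12 was at 136, 86.5 and 179 CPM in sedentary and 78.6, 80.6 and 103 CPM in trained DTR+ libraries and was not called (adjusted p = 0.104), but passed without sedentary library 2, the library that stood apart (log2 −0.80, adjusted p = 0.00585), with DESeq2 (0.0449) and with the length and GC trend removed (0.0423).

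In DTR- mice neither edgeR nor DESeq2 called any of the 8 genes tested for training, where edgeR called 0.103% of all genes. With edgeR 0 of the 8 had an unadjusted p under 0.05, beside 653 of 12579 genes. Cxcl12 was lower without overlap in trained DTR- libraries, at 137, 140 and 121 CPM against 153, 143 and 180 CPM in sedentary ones. How many of all genes separated in this way was not counted for the comparisons of this paragraph. Between the sedentary genotypes edgeR and DESeq2 also called none of the 8, where edgeR called 0.0477% of all genes. With edgeR Ccl8 and Ccl6 had an unadjusted p under 0.05, beside 642 of 12579 genes. Sedentary DTR+ libraries held 7.77, 9.59 and 3.87 CPM of Ccl8, above the 2.95, 0.368 and 2.54 CPM of DTR- libraries (log2 1.92 ± 0.51, adjusted p = 0.410), and 15.9, 39.6 (in library 2) and 17.3 CPM of Ccl6 against 15.3, 7.37 and 3.89 CPM (log2 1.55 ± 0.44, adjusted p = 0.484). Cx3cl1 was lower without overlap in sedentary DTR+ libraries, at 2.27, 2.20 and 2.08 CPM against 3.09, 3.13 and 4.91 CPM in DTR- ones. Cxcl10 had no counts in the 3 sedentary DTR- libraries, which allows a level of up to 0.163 CPM over the group. The difference between genotypes in the response to training was called for none of the 8 genes by edgeR or DESeq2, where edgeR called 0.27% of all genes. With edgeR 0 of the 8 had an unadjusted p under 0.05, beside 873 of 12579 genes. For Cxcl9 the difference was log2 2.56 ± 1.24 (unadjusted p = 0.0527, adjusted p = 0.725).

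Marker levels moved with some of these values, and their part in the chemokine values was not tested. Macrophage and monocyte markers summed to 264 to 344 CPM in trained DTR+ and 226 to 305 CPM in trained DTR- libraries, with none of 9 tested called. T and NK cell markers summed to 8.91 to 15.6 against 3.62 to 8.01 CPM, with Cd3d and Cd8a at 0 in all DTR- libraries and 1 of 10 tested and not called. Neutrophil markers were at 4.32 to 5.42 against 0.331 to 2.66 CPM, too low to test. Of 24 interferon-gamma pathway genes tested, 15 were higher and none lower (median log2 2.24), led by Iigp1, an interferon-induced GTPase, at 526 ± 371 against 12.4 ± 3.5 CPM (SD, n = 3 and 3). Between sedentary and trained DTR+ libraries, T and NK cell markers went from 2.08 to 5.66 CPM to 8.91 to 15.6 CPM, with Cd3d and Cd4 at 0 in all sedentary libraries, macrophage and monocyte markers from 236 to 239 CPM to 264 to 344 CPM (none of 9 tested called), and endothelial markers from 180.0 to 290.2 CPM to 294 to 394 CPM (Pecam1 called higher, of 6). None of these 3 sums overlapped. Between the trained genotypes no gene was called among the 8 other chemokine ligands or the 11 receptors tested. Ccr2 was at 4.34 to 9.69 CPM in trained DTR+ and 5.14 to 10.1 CPM in trained DTR- libraries.

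In trained DTR+ mice given the antibody to interferon-gamma, Cxcl9 was lower and no other of the 8 chemokines tested was called, where 0.715% of 11742 genes were called lower. Cxcl9 was at 5.19, 5.70 and 6.94 CPM with IgG and at 0.168, 1.25 and 0.339 CPM with aIFNg, the latter from 1, 8 and 2 counts. The groups did not overlap, the fitted level was 9.61-fold lower (log2 −3.27 ± 0.54, adjusted p = 0.00502), and the call held in all 11 alternatives. Cxcl10 was at 2.04, 2.19 and 2.31 CPM with IgG and 1.01, 0.783 and 1.02 CPM with aIFNg. Its groups did not overlap, but the difference was not called (log2 −1.21 ± 0.48, unadjusted p = 0.0256, adjusted p = 0.376). Ccl7, too low to test, read 1.85, 2.19 and 1.74 CPM against 1.18, 1.57 and 0.339 CPM, also without overlap. Among the 8 chemokines tested, Cxcl9 and Cxcl10 alone were lower in every library, as were 7.11% of all tested genes. Ccl7, not tested, stands outside that share.

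The remaining 6 chemokines tested were not called. Ccl8 was at 11.1, 5.70 and 6.56 CPM with IgG and 7.06, 8.61 and 3.56 CPM with aIFNg, with overlap (log2 −0.29 ± 0.35, adjusted p = 0.866). Ccl6 came to log2 −0.33 ± 0.30, Ccl2 to −0.39 ± 0.44, Ccl9 to −0.26 ± 0.38, Cx3cl1 to 0.13 ± 0.40 and Cxcl12 to 0.15 ± 0.11, with adjusted p-values of 0.749 to 0.957. Whether the fall of Cxcl9 differed from that of each of these genes was not tested. Over the 23 interferon-gamma pathway genes tested, 16 fell and none rose (median log2 −1.90, beside −0.00 over all genes), with Gbp2, an interferon-induced guanylate-binding protein, at 128 ± 33.8 CPM with IgG and 13.2 ± 2.61 CPM with aIFNg (SD, n = 3 and 3). Macrophage and monocyte markers summed to 288 to 314 CPM with IgG and 174 to 268 CPM with aIFNg, with none of 8 tested called, and T and NK cell markers to 5.70 to 13.9 and 4.54 to 6.44 CPM. Their part in the Cxcl9 value was not tested.

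**Figure D5:**
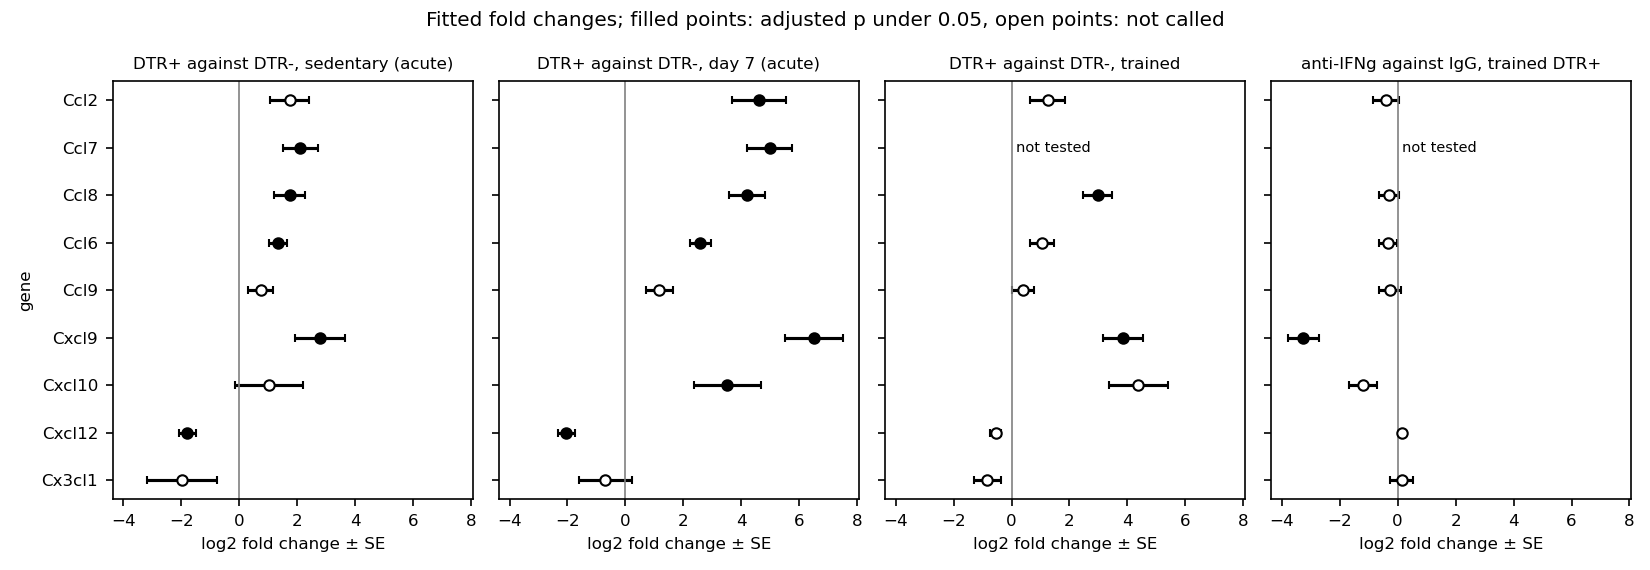
Fitted log2 fold changes with standard errors (x axis, same scale in each panel) of the 9 genes in 4 comparisons, filled where the adjusted p was under 0.05. Cxcl9 is filled in all 4 panels, at 2.79, 6.51, 3.86 and −3.27.

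In aged mice none of the 7 chemokines tested was called for aIFNg, and no gene in the table was called by edgeR or DESeq2 (64 and 286 genes had an unadjusted p under 0.05; none of the 7 did). Libraries of the same group lay far apart: with aIFNg, Cxcl12 was at 28.9 and 267 CPM, Ccl8 at 25.2 and 2.11 CPM and Ccl6 at 28.5 and 4.75 CPM, and mitochondrial genes took 14.0% and 3.25% of counts. With IgG, Ccl8 was at 16.3 and 17.1 CPM. Cxcl9, too low to test, was at 1.01 and 1.64 CPM with IgG and 0.831 and 0.791 CPM with aIFNg. Cxcl10 had 3 and 3 counts with IgG and 10 and 1 with aIFNg.

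In wild-type mice none of the chemokines tested was called after acute exercise, in either muscle at days 1, 2 or 7, with edgeR or DESeq2. In quadriceps at day 1, 0.582% of 13062 genes were called. With edgeR 5 of the 7 chemokines tested had an unadjusted p under 0.05, beside 1075 of the 13062 genes. Ccl2 was at 10.8, 2.44 and 5.84 CPM at day 1 and 1.54, 2.03 and 0 CPM in sedentary mice, without overlap (log2 2.44 ± 0.81, unadjusted p = 0.00797, adjusted p = 0.312). Ccl7 was at 4.40, 1.51 and 1.11 CPM against 0.560, 0.725 and 0.259 CPM and Ccl6 at 17.6, 9.40 and 9.46 CPM against 7.84, 7.54 and 5.71 CPM, both higher without overlap and not called (adjusted p = 0.451 and 0.443). Cx3cl1 (1.35, 1.04 and 0.278 against 2.38, 5.65 and 2.98 CPM) and Cxcl12 (116, 106 and 95.3 against 133, 143 and 133 CPM) were lower without overlap and not called (adjusted p = 0.381 and 0.185). Counted this way, 6.74% of all tested genes were higher and 7.72% lower. At day 2, 2 of the 7 (Ccl8 and Cxcl12) had an unadjusted p under 0.05, beside 1171 of the 13062 genes (0.299% of genes called). At day 7 none of the 7 did, beside 1033 of the genes (0.214% called). Cxcl12 was again lower than in sedentary mice without overlap, at 101 to 114 CPM on day 2 and 113 to 125 CPM on day 7. Ccl7 was higher without overlap at day 2 (0.737 to 1.89 CPM). How many of all genes separated in this way at days 2 and 7 was not counted.

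In tibialis anterior, Ccl6, Ccl9, Cxcl12 and Cx3cl1 passed the filter on low counts. At days 1, 2 and 7, 1 (Cxcl12), 0 and 1 (Cxcl12) of the 4 had an unadjusted p under 0.05, beside 1034, 956 and 713 of 12692 genes. Of those genes 0.0552%, 0.063% and 0.0158% were called. Cxcl12 was lower without overlap at days 1 and 7 (117 to 156 and 124 to 136 CPM against 160 to 177 CPM). At day 7 Ccl8 (26 counts against 2) and Cxcl10 (13 against 1), not tested, were higher without overlap. How many of all genes separated in this way was not counted. Ccl2 had 2, 1 and 0 counts at day 1 and 3, 3 and 5 in sedentary mice. Between the sedentary muscles neither edgeR nor DESeq2 called any of the 8 chemokines tested, where edgeR called 1.3% of 13819 genes. With edgeR 3 of the 8 had an unadjusted p under 0.05, beside 1441 of the 13819 genes. Ccl6 was at 7.84, 7.54 and 5.71 CPM in quadriceps and 3.20, 4.94 and 3.23 CPM in tibialis anterior (log2 0.89 ± 0.37, adjusted p = 0.372), and Cxcl12 at 133, 143 and 133 against 177, 160 and 162 CPM (log2 −0.29 ± 0.10, adjusted p = 0.216), both without overlap. Ccl8, with 17 counts in quadriceps and 2 in tibialis anterior, also did not overlap (adjusted p = 0.407).

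Across the 22 group means, each centred within its experiment on the log2(CPM + 1) scale, the chemokines differed in how closely they moved together. These correlations are descriptions over 22 points that share libraries and, within an experiment, controls. The points include the sedentary and day-7 DTR+ groups of the acute experiment, whose libraries had high mitochondrial shares. In these groups Cxcl12 had its lowest means (15.6 and 21.8 CPM) and Ccl6 its highest (56.3 and 103 CPM). How far the correlations rest on them was not tested. Cxcl9 and Cxcl10 had the highest Pearson r of any pair of the 9 (0.92), followed by Cxcl9 and Ccl8 (0.87) and Ccl8 and Ccl6 (0.86). Ccl2 and Ccl7 stood at 0.82, and Cxcl12 ran opposite to Ccl6 (−0.80) and Ccl8 (−0.71). Cx3cl1 was nearest to Cxcl12 (0.65). Among 10094 other genes, those closest to Cxcl9 were Gbp6 (0.96), Gbp8 (0.94) and Gbp2b (0.94), and those closest to Cxcl10 were Gbp2b (0.95), Igtp (0.92) and Gbp10 (0.92), all interferon-induced GTPases whose close copies make each count uncertain. Ccl8 was closest to Ifit3 (0.93), Psmb8 (0.91) and Gimap1 (0.90). Ccl6 was closest to Wfdc17 (0.89), Pnp (0.88) and Atp5l (0.88), Ccl9 to Plek (0.76), Heca (0.70) and Dock2 (0.70), Ccl2 to Mt1 (0.81), Rgcc (0.79) and Glul (0.77) and Ccl7 to Asb11 (0.86), Glul (0.85) and Fcgr4 (0.85). Cxcl12 was closest to Aldoart1 (0.98), Dnajb5 (0.98) and Best3 (0.97), and Cx3cl1 to Ank2 (0.85), Paxx (0.83) and Tanc1 (0.83).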

How the data were processed

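Bulk RNA sequencing of mouse muscle gave 61 libraries, each from 2 ng of RNA per the labels' protocols. The deposited values are raw counts per gene symbol. STAR 2.7.3a, featureCounts and the build mm10 are named in the submitters' processing notes. Which annotation, strand setting and treatment of multi-mapping reads the authors used is not given in the sources used here. CPM were counts over each library's total. Coordinates and exon lengths came from the GRCm38 annotation, which matched 52936 of 55011 symbols.

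The count model was edgeR 4.0.16 (R 4.3.3), run separately on each experiment: filterByExpr by group (minimum count 10, minimum total 15), TMM factors and the quasi-likelihood F test on group means, with Benjamini-Hochberg adjustment over all genes tested and calls at an adjusted p under 0.05. A gene removed by the filter is called not tested. Sedentary quadriceps and tibialis anterior were compared in a fit of all 24 wild-type libraries. SE is the fold change over the square root of F. There were 20 comparisons of 2 groups and 2 tests of a difference between responses.

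All 9 genes were looked up in every comparison, but not all are named in each. Genes of the other lists are given by counts, with some of the called genes named, and receptors of the 9 genes by level. The 3 most alike genes were those of highest Pearson r among genes reaching 5 CPM in a group. The genes, lists and tests were chosen with earlier results of these data known. Alternatives were size factors by RLE, DESeq2 1.42.0, no filter on low counts, removal of the trend on length and GC content (loess, span 0.3), the replicate number as a block, the compared groups alone and 67 refits each without 1 library. Wild-type libraries with the same ID number were taken as 1 animal's muscles. Their deviations from group means had a median correlation of 0.02 (−0.03 to 0.05), and this pairing comes from the labels. Scripts were tested on simulated data. No library pair of a group agreed within sampling noise (lowest chi-square per degree of freedom 4.04).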

Additional observations from a re-analysis of the deposited data

Results flagged for a closer look

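Ccl2 separated in opposite directions in the 2 wild-type muscles at day 1 after exercise, on very few counts in tibialis anterior. All 3 quadriceps libraries at day 1 lay above all 3 sedentary ones. All 3 tibialis anterior libraries lay below their sedentary ones (2, 1 and 0 counts against 3, 3 and 5). The changes differed by 2.19 on the log2(mean CPM + 1) scale. This difference between the muscles was not tested, and how many of all genes separated in this way was not counted. Ccl2 was not called in quadriceps and did not pass the filter on low counts in the fit of tibialis anterior.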

How the results depend on the processing

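Alternatives changed no direction of a called value. Among alternative values of single genes, 1777 kept their side of the threshold, 46 lost a call, 27 gained one and 92 changed sign without a call on either side. Without the filter on low counts, Ccl2 was also called between the sedentary acute genotypes, 1 of the 9 genes was called in wild-type quadriceps at day 1 (Ccl2), 2 in DTR- mice at day 1 (Ccl2 and Ccl7), 4 in DTR+ mice at day 7 against sedentary, 2 for the genotype difference in the day-7 response (Ccl8 and Cxcl9), 2 between the sedentary genotypes of the training experiment (Ccl8 and Ccl6) and 4 between the trained genotypes; the cause was not tested. With the compared groups alone, 2 were called in DTR- mice at day 1 and 0 in DTR+ mice at day 7 against sedentary, where fewer libraries set the spread. With the length and GC trend removed, 2 were called between the sedentary acute genotypes and 2 in DTR+ mice at day 1 against sedentary, and the cause was not tested. The share of all genes called is not given for these alternatives, nor for the replicate block and the left-out libraries below. Such counts of the 9 genes are therefore not set apart from changes over the whole table.

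With the replicate block, 1 gene (Ccl8) was called in DTR+ mice at day 7 against sedentary, and 6 in place of 7 between the genotypes at day 7 (Cxcl10, adjusted p = 0.0646). It changed no other call. Numbers in the acute, training and antibody experiments were taken to name libraries only. Same-numbered libraries had median correlations of −0.01, −0.01 and −0.04. Wild-type muscles taken as 1 animal's stood at 0.02, so these values cannot tell paired numbers from unpaired ones. In aged mice the correlation of same-numbered libraries was −0.65 and that of the other pairs 0.65, opposite by construction in groups of 2 libraries. Crossing the pairs, chosen after seeing the data, still gave 0 calls. Wild-type exercise groups share no number within a muscle, so they had no block.

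Leaving out 1 library gave 3 to 5 called genes between sedentary acute genotypes, 6 to 8 at day 7, 0 to 2 in DTR- mice at day 1, 4 to 6 in DTR+ mice at day 1 and 0 to 3 at day 7 against sedentary, 0 to 3 for training in DTR+ mice, 1 to 3 between trained genotypes, 1 to 1 for the antibody and 0 to 0 elsewhere. Groups of 2 libraries and low counts of Cxcl10, Ccl7 and Cxcl9 limit the calls. Over all genes, DESeq2 called 188 higher and 131 lower in DTR+ mice at day 7 against sedentary (edgeR 90 and 54), 217 and 292 for training in DTR+ mice (edgeR 123 and 155), 98 and 85 between trained genotypes (edgeR 78 and 34) and 117 and 48 in wild-type quadriceps at day 1 (edgeR 57 and 19). In aged mice the median log2 over all genes was 0.08, and 0.19 with RLE size factors.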
